A study of Mus musculus with 12 samples.

Results

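The comparison described here set RNA dissected from a lung metastasis against RNA dissected from a primary tumour, neither of them irradiated, in a mouse squamous cell carcinoma. The labels name tumour cells, but markers of lung and blood cells in the metastasis RNA and of muscle in the primary RNA were also present. It rests on the 2 arrays, of 12 in the series, whose labels name an unirradiated lung metastasis and an unirradiated primary tumour. They hold the same 2 RNAs with the dyes exchanged, so there is 1 RNA per group. NR-S1, a squamous cell carcinoma line that spreads to the lung, had been transplanted into the hind leg of male C3H/HeMsNrs mice. The unirradiated primary was sampled 1 week after the leg tumour reached 7.5 mm across, and the metastasis 2 weeks after that size was reached, in the lungs of other mice. Both were cut out by laser microdissection to collect tumour cells, both carry the label clone 1, and neither group was treated. The series also holds metastases and primaries from mice whose leg tumours had been irradiated, with gamma rays at 8 Gy or with carbon ions at 5 Gy, each hybridised against the same unirradiated primary RNA. The sources used here give neither ages nor the number of animals behind each RNA. Site, mouse and sampling week change together between the groups and cannot be told apart.

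A tumour cell that lodges in the lung grows among alveolar epithelium, a dense capillary bed and resident macrophages, and may use the vessels already present. A tumour growing in the leg lies against skeletal muscle and often contains regions far from a vessel, where low oxygen keeps hypoxia-inducible factor from being degraded. That factor then raises genes of glycolysis, blood vessel growth and acid handling. Squamous carcinoma cells keep keratins of stratified epithelium, and interferons released by lymphocytes raise antigen presentation and antiviral genes in tumour and host cells alike.

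Each probe gave a log2 level for each RNA in each dye, and the log2 ratio of metastasis over primary is the mean of the 2 orientations. Errors are SDs over the 2 orientations, so they measure dye and hybridisation and not the spread between tumours or mice. Likewise, overlap or its absence refers to the 2 dye readings of each RNA and not to separate tumours. With 1 RNA per group there is no replicate check and no test of any difference. A gene is said to have risen or fallen where both arrays gave a change of 2-fold or more, a log2 ratio of 1 or more in size, in the same direction. Measured genes are those with a probe whose metastasis signal, or whose primary signal, was well above background on both arrays.

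Of 17105 measured genes, 1780 rose in the metastasis (10.4%) and 289 fell (1.69%). These shares are the background for every list and family count below. Genes that rose made up 86% of those called, and 73% with the scanner's own processed log ratios or with the authors' table. The median ratio over all measured genes was 0.05, and -0.11 with the scanner's ratios. A change of at least 4-fold on both arrays was seen for 688 genes that rose and 68 that fell, and of at least 16-fold for 66 and 5. The ratio was under 0.5 in size on both arrays for 62.5% of genes. The median SD was 0.113, and across genes, which are not independent replicates, the orientations correlated at 0.95. For 128 of the genes that rose, the primary was not well above background on either array, and for 12 that fell the metastasis was not. Such genes are given as lower bounds. Both arrays lay on the same slide, between 59.7% and 66.9% of spots were well above background in each channel, and no spot was saturated.

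**Figure D1:**
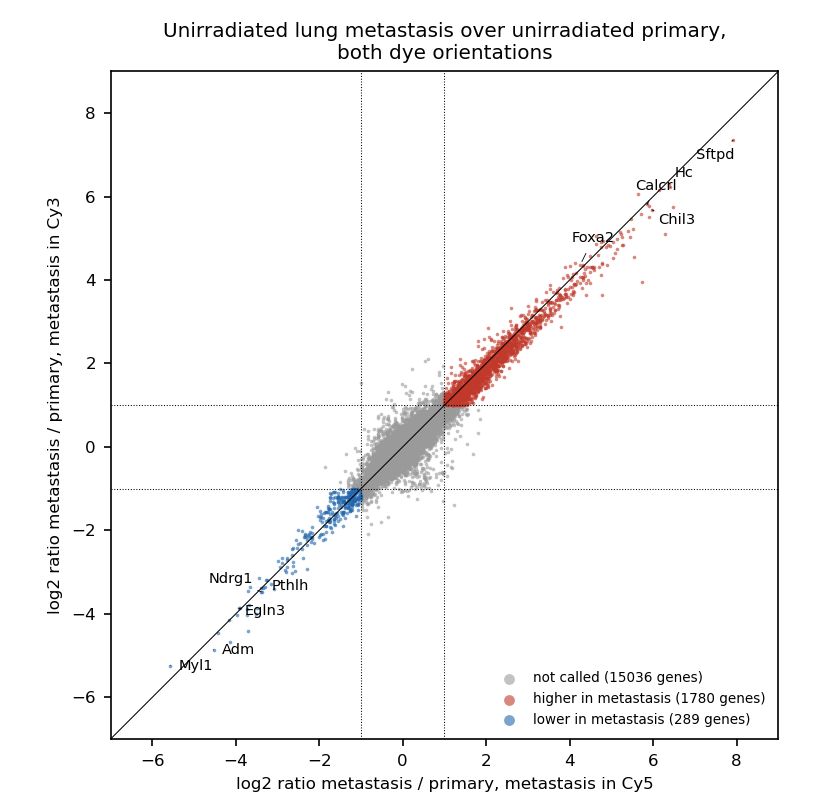
Log2 ratio of the unirradiated lung metastasis over the unirradiated primary for 17105 genes, with the metastasis in Cy5 on the horizontal axis and in Cy3 on the vertical axis. Points are genes, dotted lines mark a ratio of 1 in size, and the 1780 genes that rose (red) reach further from the origin than the 289 that fell (blue).

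The labelled cell type was checked against markers of squamous epithelium. None of 10 measured basal keratinocyte genes changed, and their median log2 ratio was -0.38. The basal keratin Krt5 had log2 levels of 17.45 and 16.66 in the metastasis and 17.45 and 17.72 in the primary, with the metastasis in Cy5 and then in Cy3. The ratio was -0.53 ± 0.75 and its levels met at the lower end of the primary. Krt14, its partner keratin, gave -0.45 ± 1.12. The squamous lineage factor Trp63 had a tighter ratio of -0.36 ± 0.02, from levels of 13.12 and 13.08 in the metastasis against 13.48 and 13.46 in the primary. The summed normalised intensity of the 10 basal genes was 500000 and 305000 in the metastasis and 476000 and 591000 in the primary, so both RNAs held a strong squamous signal. The metastasis RNA also held a summed alveolar type 2 signal of 549000 and 808000 and a neutrophil signal of 426000 and 769000. These sums lean on their brightest members, such as Sftpc at log2 levels of 18.44 and 19.19 and S100a9 at 18.12 and 19.22. They therefore do not measure shares of cells. Markers of lung and blood cells were present beside the squamous ones, and the RNA is not described here as tumour cells alone.

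Among 16 differentiating keratinocyte genes, 2 rose, beside 10.4% of all genes. They were Cnfn, a protein of the cornified envelope, at 3.08 ± 0.16, and Sprr1a, an envelope precursor, at 1.85 ± 0.01. Krt16, a keratin of activated epidermis, had a ratio of 1.15 ± 0.52 and passed on only 1 array. Of 16 keratins and junction genes of simple epithelium, 6 rose and none fell. They included Krt7 at 2.25 ± 0.05, the tight junction scaffold Tjp3 at 2.28 ± 0.10, Ocln at 2.03 ± 0.19 and Cldn7 at 2.02 ± 0.10, while Epcam stood at -0.13 ± 0.16 and Cdh1 at 0.32 ± 0.20. Krt7 and these claudins are also made by lung epithelium, whose markers were higher in the same RNA, and their part in these ratios was not tested.

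Low-oxygen response genes were lower as a group. Of 32 measured targets of hypoxia-inducible factor outside glycolysis, 19 fell and 1 rose, beside 1.69% and 10.4% of all genes. The median ratio of the 32 was -1.29, and 28 of the 32 had a ratio below 0. Of 22 glycolysis and glucose transport genes, 10 fell and 1 rose, with a median of -1.24. All 32 and all 22 were well above background in both RNAs. Lung, blood and immune markers were higher in the same metastasis RNA, in which basal keratinocyte genes had a median of -0.38, and their part in these lower ratios was not tested.

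Adm, the vasodilator peptide adrenomedullin, had log2 levels of 8.89 and 8.73 in the metastasis and 13.42 and 13.59 in the primary. The dye readings did not overlap, and Adm was 26-fold lower in the metastasis, at -4.70 ± 0.23, the lowest ratio of any named gene outside the muscle lists. Mgarp, a mitochondrial protein, stood at 7.54 and 7.69 against 11.97 and 12.15, a ratio of -4.44 ± 0.02. Egln3, a prolyl hydroxylase that marks hypoxia-inducible factor for degradation and is itself induced by it, stood at 9.13 and 9.18 against 13.07 and 13.05. Its ratio was -3.90 ± 0.04, with no overlap. Ndrg1, a stress-induced protein of differentiating epithelium, stood at 13.07 and 12.66 against 16.46 and 16.13, a ratio of -3.43 ± 0.06.

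The other members that fell covered a range of sizes. Bnip3, which directs mitochondria to autophagy, gave -3.75 ± 0.34, and Ero1a, an oxidase of protein folding, -3.74 ± 0.07. Among secreted and membrane products, the carbonic anhydrase Car9 gave -2.74 ± 0.03, the glycoprotein hormone Stc2 -2.69 ± 0.09, the vascular ligand Pgf -2.07 ± 0.23 and Vegfa -1.83 ± 0.19. Other Vegfa probes gave -1.48 to -1.07. The nuclear genes Ankrd37 (-2.16 ± 0.02), Mxi1 (-1.99 ± 0.13) and Kdm3a (-1.20 ± 0.17) fell too, Kdm3a not under median centring. Selenbp1, a selenium-binding protein that is repressed by hypoxia in some tissues, ran the other way and rose by 3.85 ± 0.27. Lox and Loxl2, collagen cross-linking enzymes, did not pass, at 0.83 ± 0.35 and 0.36.

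The falls in glycolysis spanned the pathway from uptake to export. The glucose carrier Slc2a1 stood at 13.76 and 13.22 in the metastasis and 16.06 and 16.14 in the primary, a ratio of -2.62 ± 0.44. The lactate exporter Slc16a3 gave -2.31 ± 0.04, and Pdk1, the kinase that inhibits pyruvate dehydrogenase, gave -2.88 ± 0.08. Among the enzymes between them, Eno2 (-2.26 ± 0.13), Aldoc (-1.77 ± 0.02), Tpi1 (-1.49 ± 0.09) and the phosphofructokinases Pfkl (-1.41 ± 0.29), Pfkp (-1.37 ± 0.15) and Pfkm (-1.34 ± 0.02) fell. The abundant Ldha (-1.16 ± 0.90), Aldoa (-1.30 ± 0.76) and Eno1 (-1.18 ± 0.97) differed widely between orientations and did not pass. Pfkfb4, which sets a regulator of phosphofructokinase, rose by 2.84 ± 0.10. With arrays centred on the median in place of a loess fit, Tpi1 and Pfkm no longer passed, and with all probes of a gene averaged, Pfkp did not.

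The factors that drive this response and their regulators, which include genes that restrain it, did not pass in either direction. None of 9 was called, and their median was -0.03. Hif1a stood at 11.88 and 12.01 in the metastasis and 12.10 and 11.84 in the primary, overlapping, with a ratio of -0.03 ± 0.28. Epas1, the factor most made in endothelium, had a ratio of 1.17 ± 0.29 and passed on 1 array only.

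The other metastases, read against the same primary RNA, had ratios closer to 0. The median of the 32 targets was -0.68 in the metastasis after gamma rays and -0.18 in that after carbon ions, beside -1.29 in the unirradiated one. Adm gave -1.52 and -1.07, Egln3 -1.25 and -1.13, Bnip3 -1.87 and -0.69, Ndrg1 -1.63 and -0.39, and Car9 -1.42 and -0.08 in those metastases. Ero1a gave -2.37 and -1.67. In the irradiated primaries Ero1a was also lower, at -2.05 after gamma rays and -1.96 after carbon ions, whereas Egln3 gave 0.09 and 0.61 there. All of these ratios share the unirradiated primary RNA, so they are not independent of each other.

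**Figure D2:**
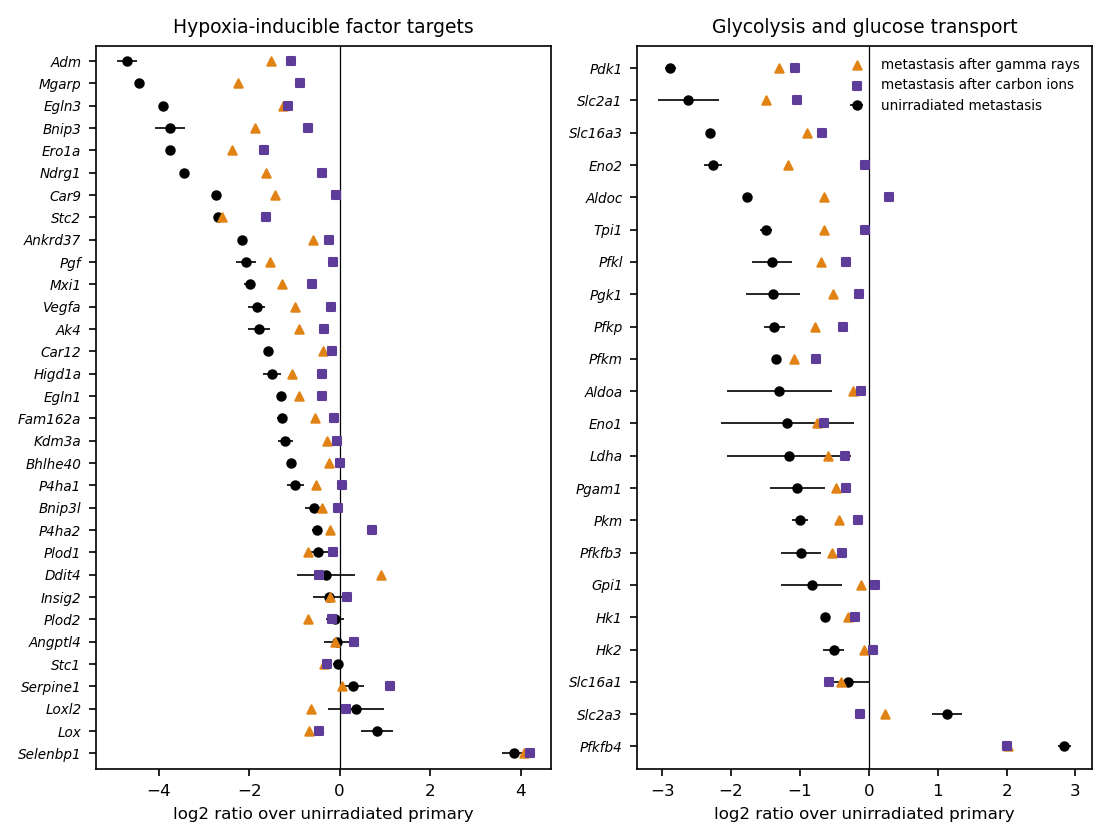
Log2 ratios over the unirradiated primary of 32 hypoxia-inducible factor targets (left) and 22 glycolysis and glucose transport genes (right), in the unirradiated metastasis (black, bars show the SD over 2 orientations) and in the metastases after gamma rays (orange) and carbon ions (violet). For most members the black points lie furthest to the left, as for Adm at -4.70 beside -1.52 and -1.07.

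Promoter sequences were available for 23 of the 32 targets, in a RefSeq table on GRCm38.p6 with 250 bases before and 50 after each start site. The letters ACGTG, the core to which hypoxia-inducible factor binds, were searched on both strands. They occurred in the promoters of 16 of the 23 (69.6%) and of 13 of 21 glycolysis genes (61.9%), beside 21.8% of 27025 genes and 19.6% of 32851 promoters of that table. Selenbp1, the 1 target that rose, held a match. Among targets that fell, 12 of 17 held a match, and among those called in neither direction, 3 of 5. For glycolysis genes the order was the other way, with 5 of 10 that fell and 8 of 10 called in neither direction. The 1 glycolysis gene that rose held none. Adm had a promoter in the table without these letters in the window. The 5 targets with the lowest ratios among those with a single start and a match are shown because they carry the lower block, written 5′ to 3′ on the gene's strand, with the matched letters in capitals (ACGTG, or CACGT where the match lies on the other strand). They are Mgarp (chr3:51396498-51396797, minus strand), Egln3 (chr12:54203825-54204124, minus), Bnip3 (chr7:138909457-138909756, minus), Ero1a (chr14:45318523-45318822, minus) and Car9 (chr4:43506776-43507075, plus).
Mgarp: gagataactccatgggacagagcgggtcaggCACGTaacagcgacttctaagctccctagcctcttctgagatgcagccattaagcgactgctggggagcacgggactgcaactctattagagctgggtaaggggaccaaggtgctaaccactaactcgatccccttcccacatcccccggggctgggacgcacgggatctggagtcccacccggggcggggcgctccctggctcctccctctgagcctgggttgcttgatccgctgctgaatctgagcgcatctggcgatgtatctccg
Egln3: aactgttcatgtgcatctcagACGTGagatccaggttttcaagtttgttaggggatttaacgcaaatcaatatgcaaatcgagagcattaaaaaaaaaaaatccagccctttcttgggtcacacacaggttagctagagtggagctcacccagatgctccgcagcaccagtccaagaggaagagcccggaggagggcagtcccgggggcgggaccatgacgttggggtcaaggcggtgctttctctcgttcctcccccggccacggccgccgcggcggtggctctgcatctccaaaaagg
Bnip3: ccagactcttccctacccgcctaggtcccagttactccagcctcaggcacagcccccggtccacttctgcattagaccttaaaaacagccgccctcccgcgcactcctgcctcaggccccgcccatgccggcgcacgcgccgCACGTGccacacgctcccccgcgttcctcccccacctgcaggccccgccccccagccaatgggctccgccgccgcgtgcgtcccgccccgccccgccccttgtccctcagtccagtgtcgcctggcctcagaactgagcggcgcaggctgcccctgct
Ero1a: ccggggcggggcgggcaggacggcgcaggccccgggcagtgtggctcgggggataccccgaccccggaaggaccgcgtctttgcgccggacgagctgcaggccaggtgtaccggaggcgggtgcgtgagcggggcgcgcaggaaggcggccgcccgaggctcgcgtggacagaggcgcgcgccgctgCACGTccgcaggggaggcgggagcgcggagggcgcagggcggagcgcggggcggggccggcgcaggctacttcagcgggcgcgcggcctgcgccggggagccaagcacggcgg
Car9: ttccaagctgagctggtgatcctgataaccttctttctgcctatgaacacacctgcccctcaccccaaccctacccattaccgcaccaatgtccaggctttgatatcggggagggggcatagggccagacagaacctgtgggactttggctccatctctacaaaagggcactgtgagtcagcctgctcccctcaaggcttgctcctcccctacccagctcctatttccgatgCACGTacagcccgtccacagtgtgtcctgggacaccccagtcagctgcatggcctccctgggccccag
In Bnip3 a match on each strand overlaps to give 6 letters that read the same on both strands. The match begins at base -18 in Car9, -63 in Ero1a, -108 in Bnip3, -219 in Mgarp and -229 in Egln3, counted from the start site. The matches are a description of letters and were not measured as binding sites.

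Among the lowest single genes were a pair that encode secreted peptides. Pthlh, the parathyroid hormone-related protein that squamous tumours release and that acts on bone and calcium, had log2 levels of 10.04 and 9.98 in the metastasis and 13.39 and 13.36 in the primary. It was 10.3-fold lower, at -3.36 ± 0.02, without overlap, and another probe gave -3.22. The vasoconstrictor endothelin Edn2 stood at 7.92 and 7.93 against 11.28 and 11.40, a ratio of -3.42 ± 0.08. Both had ratios nearer 0 in the other metastases, Pthlh at -1.17 and -0.59 and Edn2 at -1.17 and -0.98 after gamma rays and carbon ions.

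Further low genes outside the muscle and hypoxia lists were enzymes and regulators with no shared list, of which Aoc1 and Id4 were chosen after their values were seen. Car6, a secreted carbonic anhydrase, gave -2.90 ± 0.13 and was lower in every other RNA too, from -3.26 in the primary after gamma rays to -2.43 in the metastasis after carbon ions. Aoc1, which oxidises histamine and polyamines, gave -2.83 ± 0.07, beside 0.07 and 0.56 in the other metastases and 2.18 and 3.16 in the irradiated primaries. Id4, an inhibitor of basic helix-loop-helix factors, gave -2.74 ± 0.17, beside 1.11 and 1.66 in the irradiated primaries. For Aoc1 and Id4 the unirradiated metastasis was therefore on the other side of the primary from the irradiated primaries. Ces1g, a carboxylesterase, fell by 3.23 ± 0.06. Of the fibroblast gene Lrrc15, a marker of activated stroma, the brightest probe gave -3.87 ± 0.03 and another -1.18.

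Genes of the amino acid response, which cells switch on through Atf4 when amino acids run short, were lower by less. Of 20 measured, 7 fell, none rose, and 19 had a ratio below 0, with a median of -0.96. Cth, which makes cysteine, stood at 11.16 and 11.14 in the metastasis and 12.91 and 12.74 in the primary, a ratio of -1.68 ± 0.11 with no overlap. The cationic amino acid carrier Slc7a3 gave -1.62 ± 0.09, Trib3 -1.35 ± 0.36, Pck2 -1.35 ± 0.02, the serine enzyme Shmt2 -1.27 ± 0.08, asparagine synthetase Asns -1.24 ± 0.00 and Ddit3 -1.16 ± 0.05. With median centring, Asns, Shmt2, Pck2 and Ddit3 no longer passed. Atf4 itself did not pass, at -0.93 ± 0.43. The irradiated primaries had medians of -1.10 and -0.84 on this list against the same primary RNA, and Slc7a3 stood between -3.57 and -3.42 in all 4 irradiated groups.

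Skeletal muscle genes were among the lowest ratios. Of 16 fast fibre genes, 13 fell and 0 rose. Their median was -3.06 and their ratios ran from -5.41 to -0.70. The summed intensity of the 16 was 7570 and 6990 in the metastasis and 52900 and 53500 in the primary. In the metastasis 12 of the 16 were well above background on both arrays. Tnnt3, fast troponin T, stood at 6.66 and 6.73 against 10.81 and 10.88, a ratio of -4.15 ± 0.00. Ankrd23, a stress sensor of muscle, gave -3.39 ± 0.01, Synpo2l, of the contractile apparatus, -3.32 ± 0.04 and Myom2, which links myosin filaments, -3.24 ± 0.22.

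Genes of regenerating and immature muscle were lower as well. Of 14 slow and regenerating fibre genes 6 fell, among them the perinatal myosin Myh8 (-4.40 ± 0.38), the embryonic receptor subunits Chrna1 (-3.58 ± 0.18, another probe -0.52) and Chrng (at least 2.98-fold lower, another probe -0.02), and Sln (-3.80 ± 0.11), a calcium pump regulator. The list's median was -0.90, and -1.71 with the scanner's ratios. Myog (-2.24 ± 0.06) and Myf6 (at least 4.39-fold lower), muscle lineage factors, fell with 2 more of 6 progenitor genes. Myh7, the slow and cardiac myosin heavy chain, ran against the list and rose by 3.78 ± 0.15, from 7.59 and 7.81 in the primary to 11.48 and 11.48. In a dissected sample, fewer muscle cells and less RNA per muscle cell cannot be told apart, and the same holds for each cell type list that follows. On the fast fibre list the irradiated primaries had medians of -2.09 after gamma rays and -0.83 after carbon ions, so by this median the unirradiated primary held the most fast muscle signal of the 3 primaries.

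Lung epithelial genes had some of the highest ratios. Of 15 alveolar type 2 genes 12 rose, and of 11 alveolar type 1 genes 8 rose, with medians of 3.21 and 2.19. The summed intensity of the type 2 list was 549000 and 808000 in the metastasis and 14400 and 49200 in the primary, in which 14 of the 15 were also well above background. Among genes on no list, chosen after their values were seen, Scnn1a, the alpha subunit of the sodium channel that clears alveolar fluid, stood at 13.34 and 13.41 in the metastasis and 8.65 and 8.82 in the primary. It was 24.9-fold higher, at 4.64 ± 0.06, but another probe gave 0.35. The gamma subunit Scnn1g gave 4.53 ± 0.07, the type 1 cell receptor Ager 4.51 ± 0.28, the type 2 cell protease Napsa 4.44 ± 0.20, the alveolar claudin Cldn18 4.43 ± 0.15 and the anchoring protein Akap5 4.41 ± 0.24. Aqp5, a water channel of type 1 cells that squamous and glandular epithelia also make, did not pass, at -0.26 ± 0.27.

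The transcription factors that specify lung were higher in the same RNA. Of 16 listed, 8 rose and 1 fell, with a median of 1.37, or 2.06 with the scanner's ratios. Foxa2, a factor of lung and gut endoderm, stood at 11.45 and 11.38 in the metastasis and 7.20 and 7.03 in the primary, a 19.7-fold difference at 4.30 ± 0.07 with no overlap. Nkx2-1, the factor that defines lung epithelium, gave 2.55 ± 0.16. Gata6 gave 2.57 ± 0.26 and 0.76 by another probe. The mesenchymal factors Tbx2 (2.25 ± 0.19), Tbx5 (2.20 ± 0.20) and Tbx3 (1.91 ± 0.02) rose, and Sox9, of the distal tips of the developing lung, fell by 1.20 ± 0.16, a call lost with median centring and with all probes averaged. In the other metastases Foxa2 gave 3.97 and 4.46, and in the irradiated primaries 0.62 and 0.59.

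Airway genes were uneven. Of 13 secretory genes 7 rose, with a median of 1.23 that reached 4.27 when the local background was subtracted. The club cell secretoglobin Scgb1a1 stood at 13.21 and 13.11 against 8.25 and 8.31, a ratio of 4.88 ± 0.11, and the tetraspanin Tspan1 gave 4.04 ± 0.18. Of 12 ciliated cell genes 1 rose, beside 10.4% of all genes, with a list median of 0.33. It was Tppp3, at 2.45 ± 0.27. Foxj1, the master factor of motile cilia, was not well above background in the primary and gave 0.40 ± 0.20 here, beside 2.69 and 2.88 in the metastases after gamma rays and carbon ions.

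**Figure D3:**
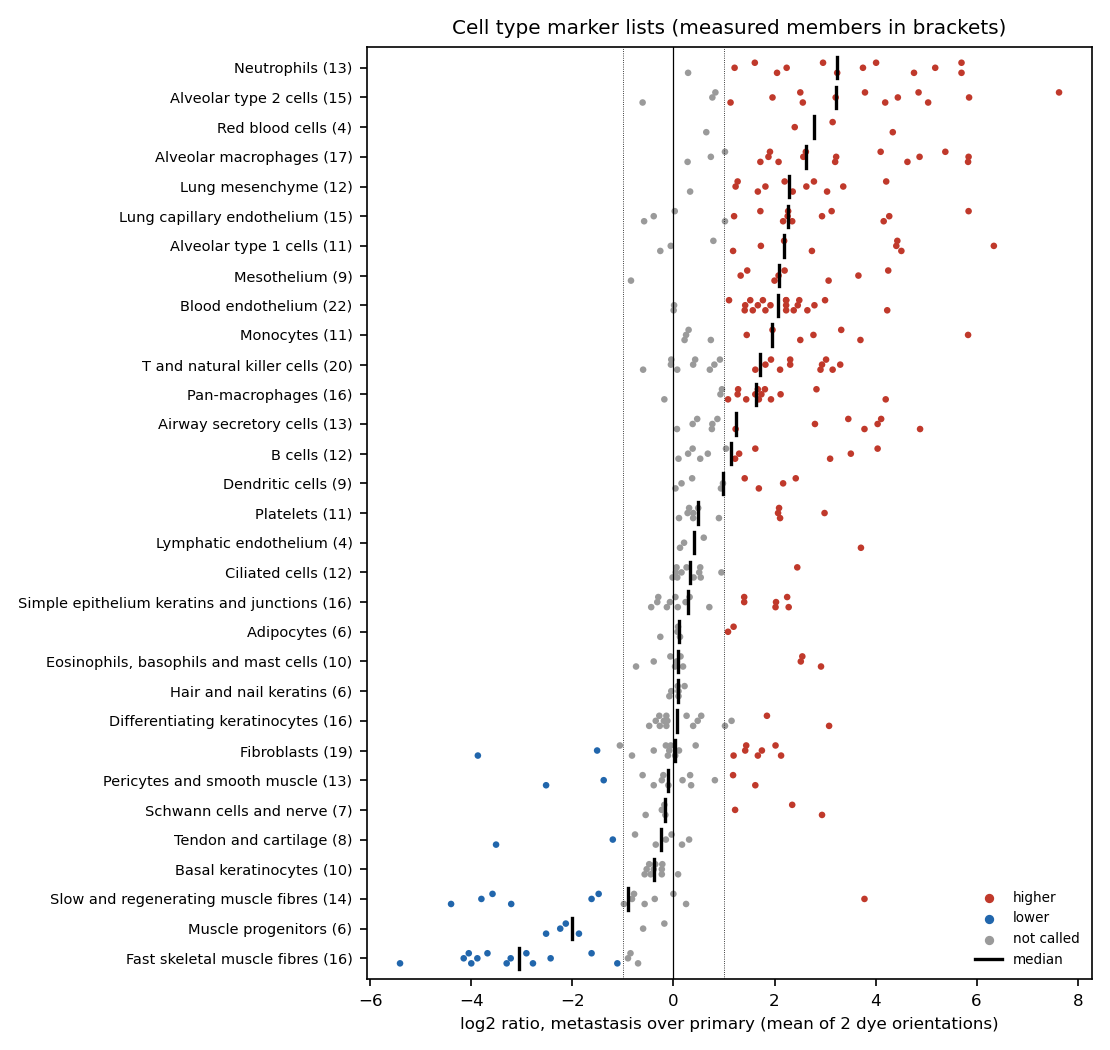
Log2 ratios of the measured members of 31 cell type marker lists, 1 point per gene, with red points for genes that rose, blue for genes that fell and black bars for list medians. The medians run from 3.24 for neutrophils to -3.06 for fast skeletal muscle fibres, and the squamous lists lie near 0.

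Genes of the lung's lining and supporting tissue were higher too. Of 9 mesothelial genes 8 rose, with a median of 2.08, or 4.41 with the scanner's ratios. In the primary 3 of the 9 were well above background on both arrays and 3 on neither. Rspo1, a Wnt amplifier, stood at 11.23 and 11.12 against 6.89 and 6.97, a ratio of 4.25 ± 0.13. The membrane protein Gpm6a was at least 12.6-fold higher, with a log2 ratio of 1.74 by another probe, and the uroplakin Upk1b at least 8.42-fold, while mesothelin, Msln, rose by 2.08 ± 0.16. In the other metastases this list had medians of 0.65 and 0.61. Of 12 lung mesenchyme genes 11 rose, with a median of 2.28, or 4.07 with background subtraction. They included the methyltransferase Inmt at 4.21 ± 0.40, Limch1 at 3.36 ± 0.05 (other probes 0.62 and 2.15), the integrin Itga8 at 3.04 ± 0.19 and Wnt2, a ligand of the lung mesenchyme, at 2.36 ± 0.10.

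General fibroblast genes had no common direction, with 7 rising and 2 falling of 19 and a median of 0.04. Col1a1 and Col1a2, the chains of type I collagen, stood at -0.15 ± 0.14 and 0.11 ± 0.15, whereas Col3a1 rose by 1.42 ± 0.06 and Col6a1 by 1.67 ± 0.07. The adventitial genes Pi16 (2.13 ± 0.32) and Dpt (2.02 ± 0.00) rose and Thbs2 fell by 1.51 ± 0.06. With median centring Col3a1 and Col6a1 did not pass. Over 24 collagens 4 rose and 2 fell, beside 10.4% and 1.69% of all genes. Col4a3, a chain of the alveolar basement membrane, rose by 2.45 ± 0.17, and Col16a1 and Col11a1 fell by 1.74 ± 0.21 and 1.32 ± 0.07, the former not with all probes averaged and the latter not with median centring.

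Of 22 blood endothelial genes 20 rose, with a median of 2.07, and of 15 genes of lung capillary endothelium 11 rose, with a median of 2.26. The summed intensity of the 22 was 95900 and 99600 in the metastasis and 22200 and 22700 in the primary, and all 22 were well above background in both. The junction protein Cdh5 stood at 11.86 and 11.76 against 9.49 and 9.67, a ratio of 2.23 ± 0.21 with no overlap. Von Willebrand factor, Vwf, gave 4.23 ± 0.20 and the adhesion gene Pecam1 1.41 ± 0.24. Calcrl, the receptor through which adrenomedullin acts, rose by 5.84 ± 0.03 on its brightest probe and gave 0.98 on another, and its partner Ramp2 rose by 2.94 ± 0.03. The lung capillary carbonic anhydrase Car4 gave 3.13 ± 0.13, and Tmem100 gave 4.16 ± 0.01 on its brightest probe and 1.05 on another. The prostaglandin-degrading enzyme Hpgd was at least 19.3-fold higher on its brightest probe, and another gave a log2 ratio of 2.89. Pericyte and smooth muscle genes had 2 rising and 2 falling of 13, beside 10.4% and 1.69% of all genes, with a median of -0.10. Among 4 measured lymphatic genes Lyve1 alone rose, at 3.71 ± 0.21.

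Macrophage genes rose broadly. Of 17 alveolar macrophage genes 14 rose, with a median of 2.62, or 4.05 with background subtraction, and of 16 pan-macrophage genes 13 rose, with a median of 1.64. The summed intensity of the alveolar macrophage list was 219000 and 242000 in the metastasis against 59100 and 66100 in the primary. The scavenger receptor Marco stood at 12.69 and 12.67 against 7.15 and 7.44, a ratio of 5.38 ± 0.21, and the beta-glucan receptor Clec7a at 15.08 and 15.25 against 9.59 and 9.79, a ratio of 5.47 ± 0.02. Neither overlapped. Adgre1 and Csf1r, found on macrophages of most tissues, rose by 1.81 ± 0.24 and 1.74 ± 0.07, calls that median centring ended, and other Csf1r probes gave 0.13 and 1.20.

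Genes of lipid uptake and handling were among the highest, and alveolar macrophages use such genes to recycle surfactant. The fatty acid receptor Cd36 stood at 12.64 and 12.69 against 7.71 and 7.85, a 29.6-fold difference at 4.89 ± 0.06, and a further probe gave 4.80. Fabp1, a fatty acid carrier, was at least 29.3-fold higher. Lipoprotein lipase Lpl gave 4.63 ± 0.37, the cholesterol exporter Abcg1 4.10 ± 0.28, the desaturase Scd1 3.48 ± 0.17 and the lysosomal lipase Lipa 2.34 ± 0.31. Of 15 genes of fatty acid synthesis and lipid handling 7 rose and none fell, with a median of 0.48, and Acaca, a synthesis gene, stood at -0.42 ± 0.04. Markers of alveolar macrophages, endothelium and alveolar type 2 cells were all higher in the same RNA, and their part in these ratios was not tested. All 18 cholesterol synthesis genes had ratios below 0 and none passed, with a median of -0.49.

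Neutrophil genes had a median of 3.24, with 12 of 13 rising. Their summed intensity was 426000 and 769000 in the metastasis and 12500 and 27500 in the primary. Retnlg, a secreted protein of mouse neutrophils, stood at 13.55 and 13.58 against 8.34 and 8.43, a ratio of 5.18 ± 0.05, and the collagenase Mmp8 at 11.43 and 11.27 against 6.68 and 6.49, a ratio of 4.76 ± 0.02. Camp, an antimicrobial peptide of granules, above background in the primary on 1 array only, gave 4.01 ± 0.08 and lipocalin Lcn2 3.75 ± 0.22. The list's median was 1.40 in the metastasis after gamma rays and 0.33 in that after carbon ions. Monocyte genes had a median of 1.96, with 7 of 11 rising, beside 0.66 and 0.36. The hemoglobin chains Hbb-bt (4.34 ± 0.02) and Hba-a1 (3.15 ± 0.19) and the heme enzyme Alas2 (2.40 ± 0.09) rose, so genes of several kinds of blood cell were higher. Hemoglobin copies share sequence and their probes may not separate them.

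Lymphocyte genes rose from low levels. Of 20 T and natural killer cell genes 11 rose, with a median of 1.72 that reached 3.53 with background subtraction. In the primary 11 of the 20 were well above background on both arrays and 5 on neither. Cd3g gave 3.30 ± 0.15, the killer receptor chain Klrd1 3.15 ± 0.07, Il2rb 3.02 ± 0.07 and Cd3d 2.94 ± 0.07, while Cd3e overlapped at -0.04 ± 0.11. The granzymes Gzma and Gzmb were at least 4.95-fold and 3.07-fold higher. Of 12 B cell genes 6 rose, with a median of 1.13, or 2.59 with the scanner's ratios. Cd79b, of the antigen receptor, gave 3.51 ± 0.05, Ms4a1, which encodes CD20, was at least 8.55-fold higher (another probe at a log2 ratio of 2.02), and the antibody joining chain Jchain gave 4.04 ± 0.35.

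Genes that interferons induce rose without exception in both lists. All 15 interferon-inducible GTPases rose, with a median of 3.41, and all 22 antiviral genes, with a median of 2.95. The other RNAs were also higher than this primary. The GTPase median was 2.30 and 2.41 in the metastases after gamma rays and carbon ions, and 2.28 and 4.36 in the irradiated primaries. The antiviral median was 2.32 and 2.40 in those metastases and 2.07 and 2.84 in those primaries. Igtp, a GTPase that attacks the vacuoles of pathogens, stood at 14.38 and 14.45 in the metastasis and 8.67 and 8.88 in the primary, a 50-fold difference at 5.64 ± 0.10. Tgtp1, of the same family, gave 5.29 ± 0.15 and 1.29 by another probe, and the guanylate-binding protein Gbp3 4.33 ± 0.02. Among antiviral genes Ifit1 gave 3.73 ± 0.04, Ifi44 3.78 ± 0.03, Rsad2 3.61 ± 0.15 and the ubiquitin-like Isg15 3.09 ± 0.14. Another Ifi44 probe gave 0.27, and other Rsad2 probes 2.05 and 2.06. Members of these families resemble each other and probes may cross-hybridise.

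The signalling chain had smaller ratios. Ifng, the ligand made by T and natural killer cells, was at least 7.41-fold higher on its brightest probe, with the primary not well above background, and gave a log2 ratio of 1.90 on another. Of 19 ligands, receptors and signalling factors 10 rose and none fell, with a median of 1.08. Irf7 gave 3.02 ± 0.20, Irf8 2.42 ± 0.35 and the feedback inhibitor Socs1 1.76 ± 0.02, and the receptor chain Ifngr1, made by most cells, stood at 1.00 ± 0.01 without passing. In the irradiated primaries, against the same reference, Igtp gave 4.77 and 6.94, and in the other metastases 4.04 and 4.24, so the unirradiated primary was the lowest of the 6 RNAs for this gene.

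Of 15 GTPases 9 had a promoter in the RefSeq table, and of the 22 antiviral genes 14 had. The letters TTTC, any 2 bases and TTTC, the spacing of the element that interferon-regulated factors bind, were searched on both strands and occurred in 8 of the 9 and in 9 of the 14 (88.9% and 64.3%), beside 3.99% of genes and 3.44% of promoters of the table. The 2 highest GTPases with a match, the antiviral gene with the most matches and Ifit1, which has 2 matches as Ifit3, Oas1a and Bst2 do, are shown because they belong to the interferon lists. They are Igtp (chr11:58199306-58199605, plus strand), Tgtp1 (chr11:48992197-48992496, minus), Isg15 (chr4:156200769-156201068, minus) and Ifit1 (chr19:34640639-34640938, plus), with matched letters in capitals, read as GAAA, 2 bases and GAAA where the match lies on the other strand.
Igtp: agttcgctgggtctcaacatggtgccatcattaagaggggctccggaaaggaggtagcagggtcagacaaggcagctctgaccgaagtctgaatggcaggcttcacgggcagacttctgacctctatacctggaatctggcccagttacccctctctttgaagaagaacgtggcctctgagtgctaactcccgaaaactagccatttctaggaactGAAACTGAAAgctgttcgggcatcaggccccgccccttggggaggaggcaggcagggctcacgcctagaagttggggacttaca
Tgtp1: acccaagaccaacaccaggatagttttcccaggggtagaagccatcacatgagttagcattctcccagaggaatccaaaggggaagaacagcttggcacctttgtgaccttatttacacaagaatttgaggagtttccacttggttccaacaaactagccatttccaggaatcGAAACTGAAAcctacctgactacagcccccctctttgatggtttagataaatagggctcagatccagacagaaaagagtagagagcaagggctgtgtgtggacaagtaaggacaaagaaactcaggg
Isg15: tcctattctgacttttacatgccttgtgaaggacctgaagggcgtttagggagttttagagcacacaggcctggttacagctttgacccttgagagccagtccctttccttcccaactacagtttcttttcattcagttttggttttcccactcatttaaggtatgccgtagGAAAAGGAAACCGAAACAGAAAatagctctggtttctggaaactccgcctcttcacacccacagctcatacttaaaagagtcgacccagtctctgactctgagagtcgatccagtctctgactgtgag
Ifit1: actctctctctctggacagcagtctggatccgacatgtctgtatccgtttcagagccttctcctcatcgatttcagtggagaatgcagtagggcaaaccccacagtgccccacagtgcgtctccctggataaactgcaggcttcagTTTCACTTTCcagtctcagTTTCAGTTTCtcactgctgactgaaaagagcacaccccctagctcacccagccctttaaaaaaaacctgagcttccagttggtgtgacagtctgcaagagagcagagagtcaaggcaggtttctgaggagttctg
Isg15 holds 3 overlapping matches and Ifit1 2 separate ones. The matches begin at base -34 in Igtp, -77 in Tgtp1, -78 in Isg15 and -104 in Ifit1. Here too they are letters in a window, and binding was not measured.

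Antigen presentation to helper T cells, complement and chemokines were higher as well. All 10 measured genes of class II presentation rose, with a median of 2.60. Ciita, the factor that switches these genes on, stood at 10.45 and 10.36 against 7.76 and 7.77, a ratio of 2.64 ± 0.07, and the chaperone chain Cd74 gave 3.01 ± 0.07. Whether the probes separate related class II chains was not tested. Of 20 complement genes 15 rose and none fell, with a median of 1.56. Hc, complement component C5, stood at 13.94 and 13.95 against 7.54 and 7.73, a 79.5-fold difference at 6.31 ± 0.13. It gave 6.41 and 6.67 in the other metastases and -0.13 and -0.11 in the irradiated primaries. Factor B, Cfb, gave 3.42 ± 0.29 and C3 2.37 ± 0.00, with another C3 probe at 0.35.

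Of 27 chemokines 16 rose and none fell, with a median of 1.83. The CXCR3 ligands Cxcl10 (5.04 ± 0.29), Cxcl9 (4.99 ± 0.09) and Cxcl11 (3.77 ± 0.21), which attract activated T cells, and the monocyte chemokine Ccl6 (5.14 ± 0.16) were among the highest, and Cxcl15, a lung epithelial chemokine, gave 4.19 ± 0.15 on its brightest probe and 6.22 on another. Of 16 checkpoint and costimulation genes 8 rose and none fell, with a median of 0.95 that reached 1.78 with background subtraction. The inhibitory receptor Pdcd1, known as PD-1, gave 2.91 ± 0.07, its ligand Cd274 2.24 ± 0.25 and Vsir 2.35 ± 0.33. The genes of type 2 immunity rose for 8 of 13, with a median of 2.11, or 1.08 when dim probes were kept. The epithelial alarmin Il33 gave 3.86 ± 0.31, the eosinophil chemokine Ccl24 2.66 ± 0.12 and the chitinase-like Chil4 6.15 ± 0.02, a near-copy of Chil3. Retnla, a product of alternatively activated macrophages, gave 2.11 ± 0.01 here, beside 4.59 and 4.63 in the other metastases. Markers of macrophages, neutrophils and lymphocytes were higher in the same RNA, and their part in these ratios was not tested.

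**Figure D4:**
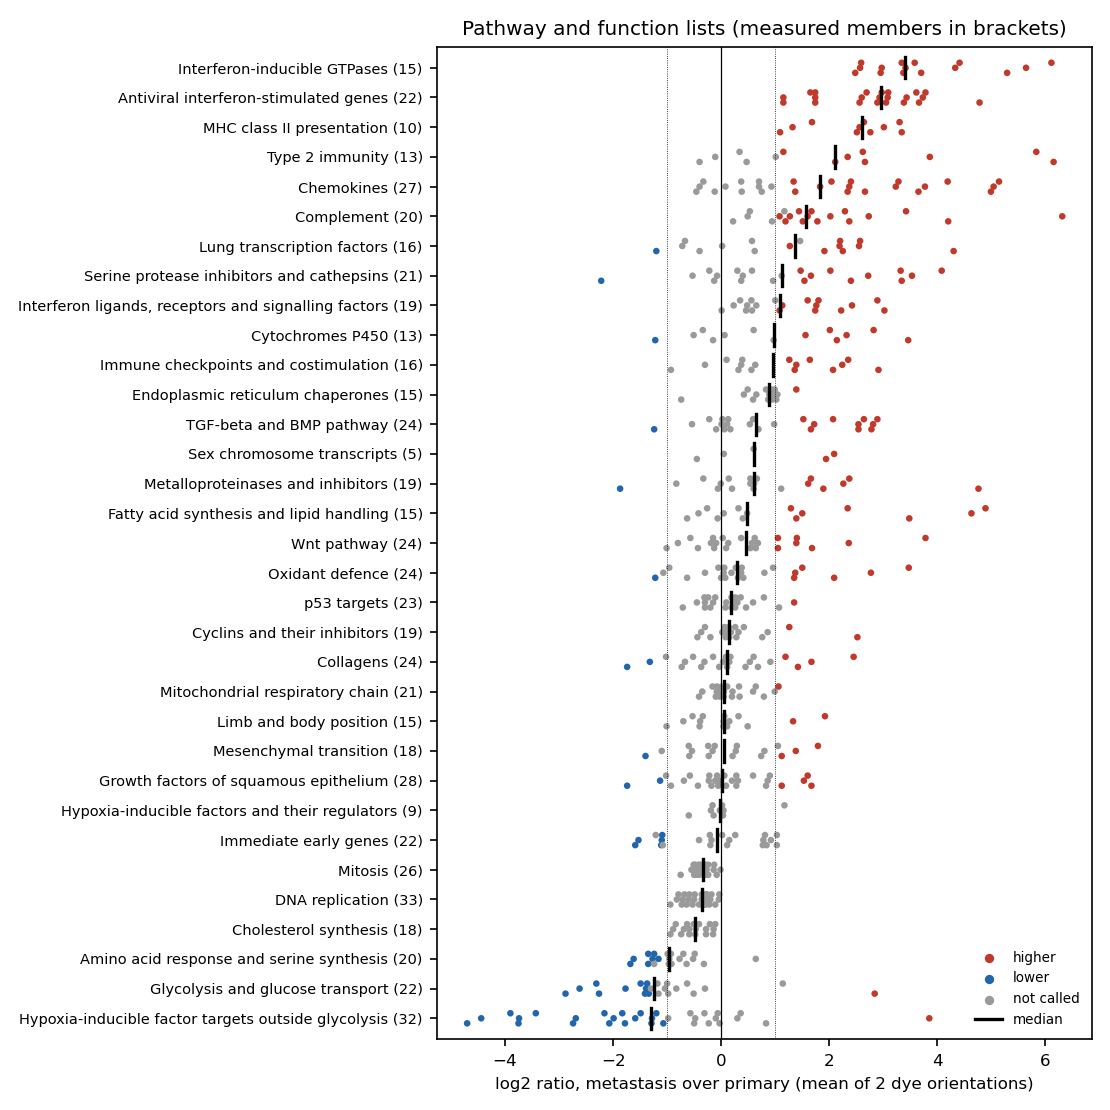
Log2 ratios of the measured members of 33 pathway and function lists, 1 point per gene, coloured red for genes that rose and blue for genes that fell, with black bars for list medians. The medians run from 3.41 for interferon-inducible GTPases to -1.29 for hypoxia-inducible factor targets, and all members of the mitosis, DNA replication and cholesterol synthesis lists lie below 0.

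No mitosis or DNA replication gene passed. All 26 mitosis genes and all 33 DNA replication genes had ratios below 0, with medians of -0.33 and -0.35. With arrays centred on the median, both medians were -0.53. The proliferation antigen Mki67 stood at 13.94 and 13.90 in the metastasis and 14.24 and 14.20 in the primary, at -0.30 ± 0.01. Thymidine kinase, Tk1, gave -0.94 ± 0.06 and the topoisomerase Top2a -0.75 ± 0.17. Among 19 cyclins and inhibitors, 15 were above 0, with a median of 0.15, and 2 rose, beside 10.4% of all genes. The inhibitor Cdkn2b, which TGF-beta induces, rose by 2.52 ± 0.05 and E2f2 by 1.26 ± 0.11. Of 23 p53 targets Fas alone passed, at 1.35 ± 0.27, and Cdkn1a stood at 0.26 ± 0.01. Of 22 immediate early genes 5 fell and none rose, among them Ier3 (-1.59 ± 0.00) and Egr1 (-1.53 ± 0.23), while Jun stood at 1.03 ± 0.07. With median centring Egr1, Fas and E2f2 did not pass.

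Among the genes of mesenchymal transition 3 of 18 rose and 1 fell, beside 10.4% and 1.69% of all genes. The repressors that lead the transition went separate ways. Snai2 fell by 1.40 ± 0.20, and Zeb2, Zeb1 and Snai1 rose by 1.79 ± 0.07, 1.38 ± 0.33 and 1.12 ± 0.10. Vim, the mesenchymal filament, stood at 0.21 ± 0.01. With median centring Snai2, Zeb1 and Snai1 did not pass, and other Zeb2 probes ran from 0.26 to 1.13. Of 19 metalloproteinases and inhibitors 6 rose and 1 fell, with Mmp12, the macrophage elastase, at 2.37 ± 0.10, the inhibitor Timp3 at 2.26 ± 0.46 and the epithelial stromelysin Mmp10 at -1.87 ± 0.04.

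Signals of the TGF-beta and BMP pathway were higher for 10 of 24 genes and lower for 1, with a median of 0.64. Of the ligands, Bmp4 rose by 2.54 ± 0.05, Bmp7 fell by 1.24 ± 0.06 and Tgfb1 stood at 0.17 ± 0.06. The receptors Tgfbr2 (2.64 ± 0.11, another probe 0.54) and Acvrl1 (1.72 ± 0.00) rose. So did the targets of BMP signalling Id2 (2.89 ± 0.22), Id1 (2.81 ± 0.14) and Id3 (2.54 ± 0.01), in contrast to Id4, and the inhibitor Smad6 (2.07 ± 0.17). Endothelium expresses several of these, its markers were higher in the same RNA, and their part was not tested. In the Wnt pathway 7 of 24 rose and none fell, with a median of 0.45, or 0.13 with dim probes kept. The feedback inhibitor Nkd1 was the highest, at 3.78 ± 0.16, then Wnt2 and Wnt3a (1.68 ± 0.11). Of 28 growth factors and receptors of squamous epithelium 4 rose and 2 fell, beside 10.4% and 1.69% of all genes, with a median of 0.01. Fgfr1 (-1.74 ± 0.45) and the ErbB ligand Nrg1 (-1.13 ± 0.03) fell, Fgf18 rose by 1.67 ± 0.05, and Egfr stood at -0.08 ± 0.36. With median centring Bmp7 and Nrg1 did not pass.

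**Figure D5:**
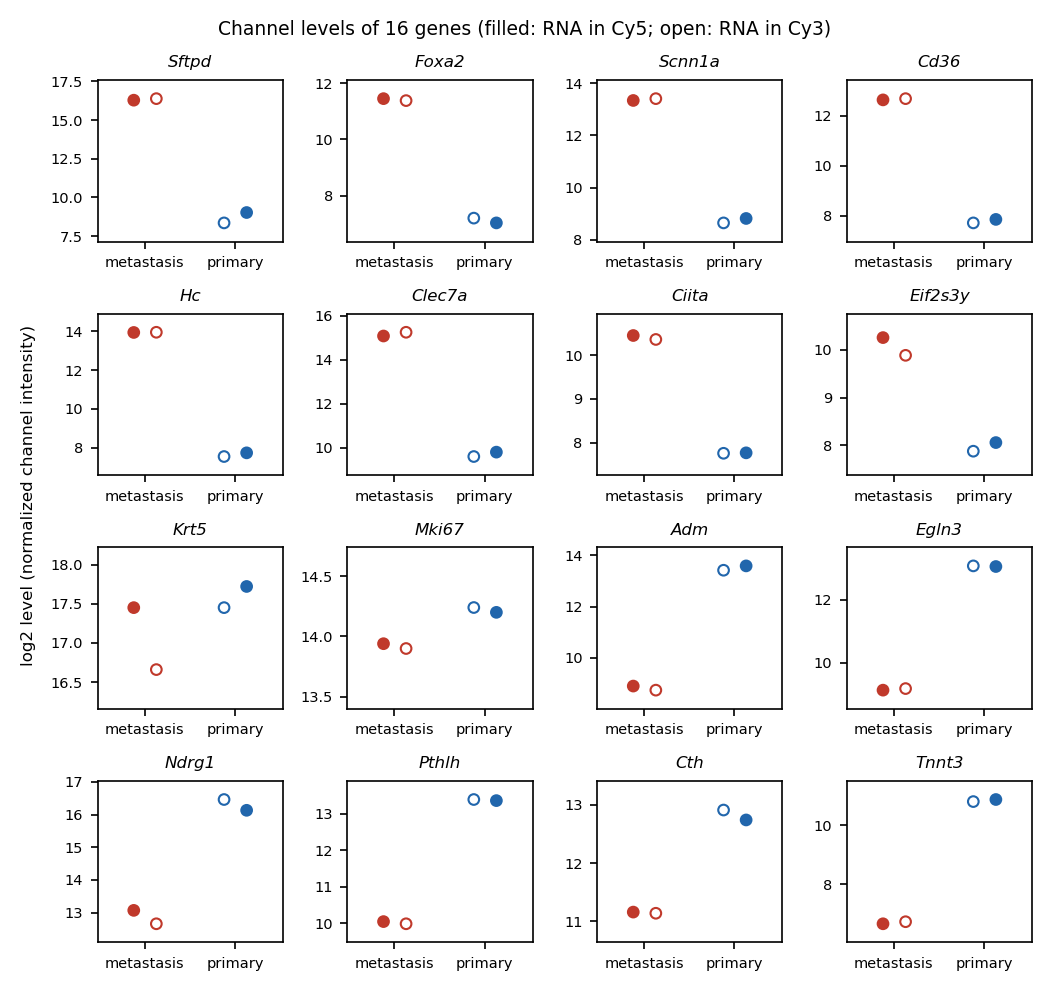
Log2 channel levels of 16 genes in the unirradiated metastasis (red) and primary (blue), filled where the RNA was labelled with Cy5 and open where with Cy3, each gene on its own scale. For Krt5 the groups meet at 17.45, and for Foxa2, Hc, Adm and Pthlh they lie well apart.

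Detoxifying enzymes of the lung were higher in part. Of 13 cytochromes P450 6 rose and 1 fell, with a median of 0.97, or 0.45 with dim probes kept. The club cell enzyme Cyp2f2 gave 3.46 ± 0.26, Cyp2b10 2.82 ± 0.01 and Cyp4b1 2.32 ± 0.15, and Cyp2s1, an epithelial member, fell by 1.22 ± 0.14. Of 24 oxidant defence genes 6 rose and 1 fell, the flavin monooxygenases Fmo1 and Fmo2 by 3.47 ± 0.07 and 2.77 ± 0.02 and Nqo1 by -1.22 ± 0.11. Of 15 folding genes of the endoplasmic reticulum Sdf2l1 alone passed, at 1.39 ± 0.03, and 14 had ratios above 0, with a median of 0.89 and Hspa5 at 0.59 ± 0.22. Among 21 protease inhibitors and cathepsins 10 rose, with the stefin Stfa3 at 4.08 ± 0.15 and Serpina3g at 3.53 ± 0.15, and Serpinf1, an inhibitor of vessel growth, fell by 2.22 ± 0.12. Respiratory chain genes had a median of 0.05, with Cox6a2 alone called of 21. With median centring Cyp2s1, Nqo1 and Sdf2l1 did not pass.

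Genes of body position and sex chromosomes mark where and in whom cells arose. Of these, 2 of 15 and 2 of 5 rose, beside 10.4% of all genes, and none fell. Of 15 limb and body position genes Hoxb5 and Hoxa5, active in lung mesenchyme, rose by 1.92 ± 0.06 and 1.33 ± 0.24, and the hind limb factor Pitx1 stood at -0.39 ± 0.38. Of 5 measured sex chromosome transcripts the Y-linked Eif2s3y and Ddx3y rose. Eif2s3y stood at 10.25 and 9.88 in the metastasis and 7.88 and 8.06 in the primary, a 4.26-fold difference at 2.09 ± 0.38, and Ddx3y gave 1.94 ± 0.27, with another probe at 0.30. Xist, made from the inactive X chromosome, was well above background in both RNAs and stood at -0.45 ± 0.24. Eif2s3y gave 1.81 and 1.84 in the other metastases and -0.41 and -0.29 in the irradiated primaries. The labels give all mice as male.

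By symbol, families of immune genes had the highest share of members that rose. All 9 Gbp genes, 13 of 14 Ifi genes, 8 of 10 Ms4a and related genes, 19 of 24 H2 genes, 13 of 18 Ccl genes and 13 of 20 Clec genes rose. Of 81 Cd genes 42 rose. The highest shares that fell were in Myh, with 4 of 11, Myl, with 3 of 9, and Car, with 4 of 14. None of 48 Rpl genes was called, 1 of 42 Rps genes rose, and of 299 Zfp genes 12 rose, beside 10.4% of all genes. The share of genes that rose ran from 8.26% on chromosome 8 to 15.4% on chromosome 6. Among autosomes and the X chromosome, the median ratio was below 0 in both orientations on chromosomes 8 and 15 alone, at -0.07 each. The spread of these medians was not measured.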

How the data were processed

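Each array compared 2 linearly amplified RNAs, labelled Cy3 and Cy5, on an Agilent mouse array, design 014868. The deposited mean signal and local background intensities, for 43379 spots besides controls, were read by the scanner software Feature Extraction 9.1.3.1, protocol GE2-v5_91_0806, per the file headers. The deposited log10 ratios of red over green are the scanner's processed values, per the file headers, and the authors' table of values matched them within 0.005 with column medians of 0. It was used as an alternative.

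Intensities were corrected with normexp (offset 50) and fitted by loess within each array in limma 3.58.1 under R 4.3.3, with control spots left out of the fit. The 50 to 58 outlier spots per array were left out afterwards, when the spots of a probe were averaged. Log2 ratios were turned so that the metastasis is on top, and log2 levels were quantile-scaled on mean brightness between arrays. The brightest probe stood for a gene. Probes were named through the RefSeq GRCm38.p6 table, 22944 by accession, 6664 by symbol and 3096 by an earlier symbol, while for 8470 the array's own name was used. A bound sets the brighter group's mean against the dim group's own level or its background limit, whichever was higher on each array. Where the gene's own level was higher, the bound uses that level. The number of arrays limits the precision. Lists were calculated with pandas 2.3.3. The normalisation and the calling rule were tested on simulated arrays.

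The members and lists were chosen with earlier results of these data known. Named genes are, for each list, its first 2 members and up to 6 called members with the largest ratios, the 30 highest and 30 lowest called genes, and up to 3 called members of gene families of at least 8. Other genes were named after their values were seen. The 11 alternatives changed the background correction, centring, source of the ratio, filter, probe rule, threshold or orientation. No test was run, since each group is 1 RNA. Genes from other comparisons of the series are given only side by side. Some members that the rule names are not reported here.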

Additional observations from a re-analysis of the deposited data

Results flagged for a closer look

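Ncam1, a cell adhesion molecule of nerve, muscle and natural killer cells, stood out because its sign differed between metastases read against the same primary RNA. Its log2 ratio was 1.22 ± 0.18 (SD over 2 orientations) in the unirradiated metastasis, with levels of 10.19 and 10.07 against 8.84 and 8.97 in the primary. It was -1.29 in the metastasis after carbon ions and -0.95 in that after gamma rays, on both arrays of each. The difference was not tested, since each is 1 RNA. Other Ncam1 probes ranged from -1.33 to 1.21 in the unirradiated metastasis, so the probes disagree in sign within the same RNA.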

How the results depend on the processing

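The 1780 genes that rose and 289 that fell became 1090 and 118 at a log2 ratio of 1.5 and 1294 and 185 with median centring. The genes that fell numbered 446 with a normexp offset of 0, 554 with local background subtraction, 874 with the scanner's ratios and 871 with the authors' table. With 1 orientation left out, 1906 to 2093 genes rose, 355 to 403 fell and 27 to 29 lists had a median of at least 1 in size, beside 27 of 64 with both. Over the other alternatives that number was 24 to 35. No called gene turned to the opposite call in any of the 11 alternatives. The filter, threshold and single-orientation settings reuse the same ratios and could not have turned a call. The scanner's ratios and the authors' table are nearly the same values. Of 418 called list members, 329 kept their call with median centring, 402 with the scanner's ratios and 312 at a threshold of 1.5. Signal near background limits the size of the ratios of dim genes. The mesothelial median of 2.08 was 3.22 with a normexp offset of 0, 4.03 with background subtraction and 4.41 with the scanner's ratios, and the airway secretory median of 1.23 was 2.68, 4.27 and 3.86. The causes of these differences were not tested. No paired analysis was possible because each group is 1 RNA and no replicate numbers pair the groups.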
